A study of Nasonia vitripennis with 79 samples.

Results

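In the parasitoid wasp Nasonia vitripennis, 100 genes stood out by their higher RNA level in female than in male heads, and their levels were followed here through other heads and through abdomens. They were chosen from 13792 genes named only by a LOC identifier, in a count table of 14621 genes. CPM is the count of a gene per 1000000 counts of its library, and each gene was ranked by its mean log2(CPM + 1) in heads of F14 diploid females minus that in heads of F15 haploid males. The first 100 genes were kept. That difference ran from 1.304 to 10.26 with a median of 1.73 on the log2 scale, and it is a description of how the genes were picked, not a result. At the edge, the genes ranked 99 and 100, LOC100114918 and LOC100120127, had differences of 1.305 and 1.304, and the next genes by rank, left out, LOC100115267 and LOC116738504, had differences of 1.297 and 1.296.

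The samples were poly(A) RNA libraries of heads and abdomens from the WOM line, a laboratory line in which polyploidy was induced by the knockdown of a gene of sex determination, which was not analysed here. Females were diploid (2N) or triploid (3N) and came from generations F2 and F14, and males were haploid (1N) or diploid (2N) and came from generations F3 and F15. All were collected 1 day after they emerged. The 16 groups, 1 for each sex, ploidy, generation and body part used, held 5 libraries each, except for the 4 of F14 triploid female abdomens, 79 in all. All groups, including those of the usual ploidy, carry the WOM label. Every male group belongs to the generation that follows the females it is set against, so the difference between sexes and that between these generations cannot be told apart. The labels do not say whether libraries were separate cultures or pools of wasps, and the spread that the p-values rest on is that between libraries, which may be technical.

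Nasonia is haplodiploid: unfertilised eggs normally give haploid males, and fertilised eggs give diploid females. Sex is set through a splicing cascade in which Transformer (Tra), a splicing regulator present in active form in females, directs the female forms of Doublesex (Dsx) and Fruitless (Fru), transcription factors that shape sexual traits of body and nervous system. The insect head holds brain, compound eyes, antennae, fat body, glands, muscle and cuticle, and female heads differ from male heads in several of these tissues. In such bulk samples, fewer cells of a type and less RNA per cell cannot be told apart.

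Total counts per library, in units of 1000000, ran from 12.63 to 94.98. Tra, the sex marker, lay at 133 to 1545 CPM in female heads and at 48.3 to 105.03 CPM in male heads, with no overlap in the 40 libraries. The eye opsin Lop1 lay between 552 and 17192 CPM in every head library. The 5 libraries labelled F2 diploid female abdomens looked like heads: Lop1 was at 1808 to 4269 CPM and the neuronal gene Syt1 at 571 to 810 CPM, against at most 7.09 and 110.3 CPM in the other female abdomens. They were left out of the abdomen tests unless stated. Of the male abdomens, D119 of the F15 diploids had Lop1 at 292 CPM, against at most 12.2 CPM in the other 19, and Syt1 at 72.4 CPM, within the 52.4 to 92.8 CPM of its group. The F2 triploid female abdomens were high in germ plasm RNA, with oskar, a germ plasm gene, at 895 to 1027 CPM. Oskar and nanos together summed to 994 to 1102 CPM there. In F14 diploid and F14 triploid female abdomens the sum was 671 to 870 and 296 to 785 CPM. In the F2 triploids Syt1 was low, at 3.33 to 4.77 CPM, as was the muscle gene Zasp66, at 1.82 to 6.29 CPM. Of the other muscle markers, Tm1 averaged 552 CPM against 1803 CPM in F3 diploid male abdomens. Tm2 and Srf were not lower, at 119.9 and 36.4 CPM against 61.4 and 33.2 CPM in these males. In heads, oskar and nanos together stayed between 1.67 and 56.2 CPM. Genes of muscle and cuticle differed between head groups. In F2 diploid females 4 muscle markers summed to 1987 to 5196 CPM, and in F14 triploid females to 1121 to 6255 CPM. The sum was 391 to 777 CPM in F2 triploid females and 668 to 1408 CPM in male heads. In the selection groups it was 1033 to 1383 CPM in F14 diploid females and 833 to 930 CPM in F15 haploid males. The part of muscle RNA in the choice of the genes was not tested.

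Of the 100 genes, 95 are protein-coding and 5 are long non-coding RNAs in the RefSeq annotation of assembly Nvit_psr_1.1. LOC100121630 alone has a second name there, Def2-3, a name of the defensin type used for antimicrobial peptides. No function is given for the others in the files used here, so they are described by identifier. For 17 of the 100, most of the nonzero counts were not whole numbers, because the counting program split reads between similar genes, and values of these genes are uncertain. LOC100113720, LOC100119985, LOC100121781, LOC100120127 and the non-coding LOC116417160 are among them. Along the assembly, 6 pairs of the 100 genes stood next to each other with no other measured gene between them. These pairs were LOC100122102 with LOC100114046, LOC100120544 with LOC100123729, LOC100120334 with LOC100123631, LOC107980832 with LOC100679420, LOC100122740 with LOC100120933, and LOC100114235 with LOC100122675.

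The genes covered a wide range of levels. On the TPM scale, which accounts for transcript length, their mean in F14 diploid female heads had a median of 24 and ran from 2.26 to 10740.1, against a median of 13 over all genes. The highest was LOC100114168, at 10740.1 ± 2062 TPM (SD, n = 5), the third most abundant gene of those heads. LOC100113683 followed at 5390.5 ± 1706 TPM, LOC100679420 at 1605 ± 640 TPM and LOC100122102 at 1482 ± 265 TPM. LOC100114168, LOC100113683 and LOC100679420 were singled out here after their values were seen.

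**Figure D1:**
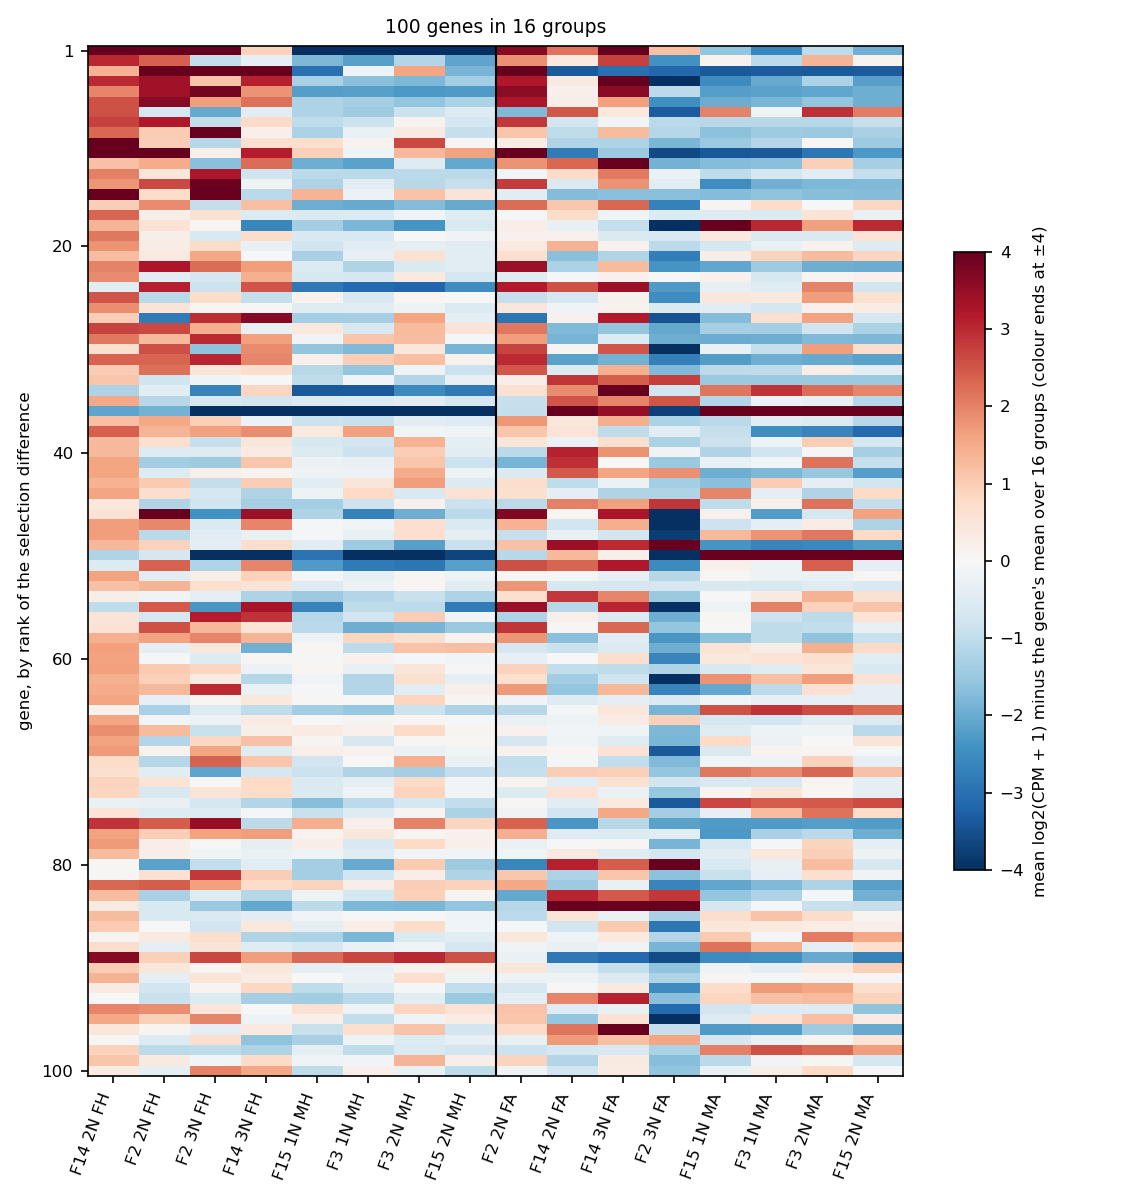
Mean log2(CPM + 1) of the 100 genes (rows, by rank of the selection difference) in 16 groups (columns, heads left of the line and abdomens right), shown as the difference from each gene's own mean over the 16 groups. F and M stand for female and male, H and A for head and abdomen; the 2 columns used for the selection are F14 2N FH and F15 1N MH, and the F2 2N FA column resembles the female heads.

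Read library by library, the median log2(CPM + 1) over the 100 genes separated the sexes in most heads. In the groups that chose the genes it averaged 3.86 in F14 diploid females and 1.68 in F15 haploid males, by construction. In the other female heads it averaged 3.23 ± 0.30 (SD, n = 5) in F2 diploids, 2.90 ± 0.25 in F2 triploids and 2.87 ± 0.41 in F14 triploids. In the other male heads it averaged 1.78 ± 0.15 in F3 haploids, 1.89 ± 0.25 in F15 diploids and 2.53 ± 0.35 in F3 diploids. The F3 diploid males stood highest among males: their libraries ran from 2.13 to 3.07 and overlapped the libraries of F2 triploid females, at 2.61 to 3.27, and of F14 triploid females, at 2.40 to 3.5. F2 diploid females, at 2.74 to 3.53, lay above every F3 haploid male library, at 1.54 to 1.95.

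**Figure D2:**
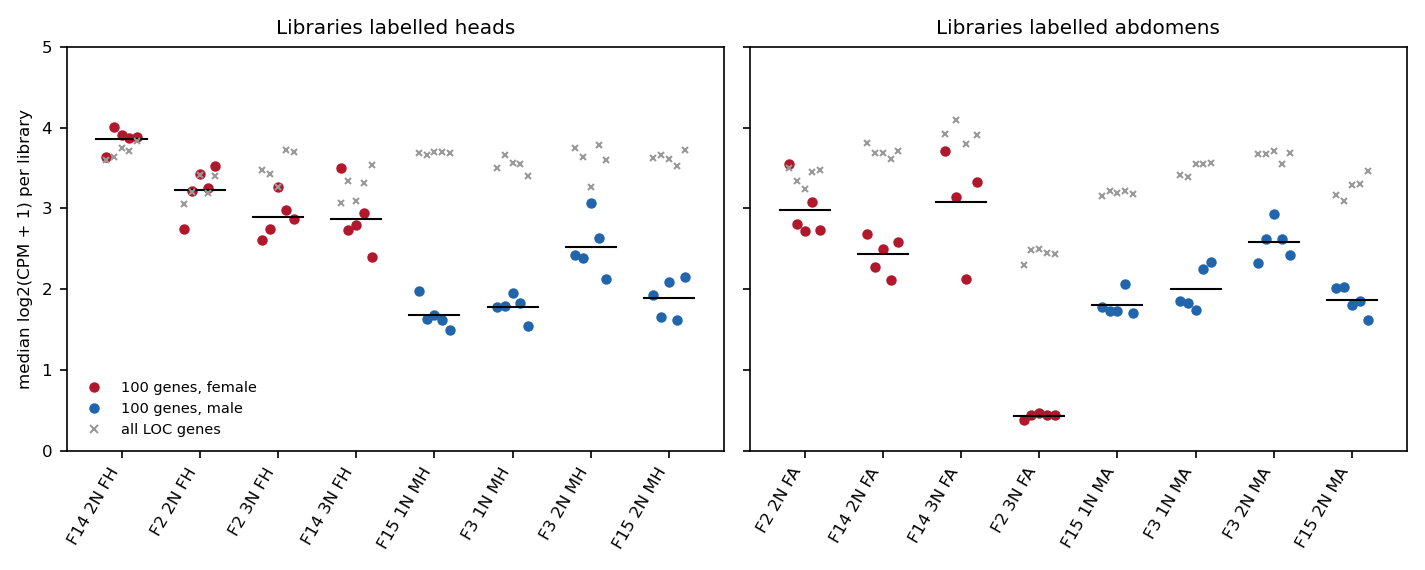
Median log2(CPM + 1) over the 100 genes in each library (dots, red female and blue male, line at the group mean) beside the median over all 13792 LOC genes (grey crosses). Female heads sit between 2.40 and 4.01 and male heads between 1.49 and 3.07, and F2 triploid female abdomens lie lowest, at 0.38 to 0.46.

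3 comparisons of female with male heads used no library of the selection and shared no library: F2 diploid females against F3 haploid males, F14 triploid females against F15 diploid males, and F2 triploid females against F3 diploid males. They asked how far the difference between sexes recurred in other generations and at other ploidies. In each of them, as in the selection, the females had more chromosome sets than the males, so sex and ploidy differed together. Tests were edgeR quasi-likelihood tests with Benjamini-Hochberg adjustment over all genes that passed a filter on low counts, and a gene was called at an adjusted p under 0.05. Of the 100 genes, 99 passed that filter in heads and 1, LOC116415722, did not. In F2 diploid females against F3 haploid males, 50 were called higher in females and 1, the non-coding LOC116417160, lower, where 10.2% and 9.05% of all tested genes were called in these directions. In F14 triploid females against F15 diploid males, 49 were higher and 5 lower, against 14.7% and 13.5% of all genes. The 5 lower genes were LOC100113720, LOC100118781, LOC100123340, LOC100120197 and LOC100115170. In F2 triploid females against F3 diploid males, 26 were higher and 13 lower, against 8.78% and 8.86%. A comparison at equal ploidy, F2 diploid females against F3 diploid males, shares its female libraries with the first and its male libraries with the third. It called 41 higher and 15 lower, against 13.7% and 17.1%.

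Without a filter, and over all 100 genes, the median difference of mean log2(CPM + 1) between female and male heads was 0.81 in the F2 diploid and F3 haploid pair, with 69 genes higher in females. It was 0.56 with 70 genes higher in the F14 triploid and F15 diploid pair, and 0.20 with 52 genes higher in the F2 triploid and F3 diploid pair. Over all 13792 LOC genes the medians of these pairs were -0.14, -0.10 and -0.01. The libraries of the sexes did not overlap, all females above all males, for 43, 25 and 18 of the 100 genes in the same order, against 6.37%, 3.52% and 2.85% of all LOC genes. Without the 3 F14 triploid head libraries with the highest level of the muscle gene Tm1 (D81, D83B and D84, at 3621 to 5694 CPM against 916 and 1665 CPM), an alternative chosen after seeing the data, the second comparison called 31 genes higher and 4 lower. The part of muscle RNA in that result was not tested further.

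**Figure D3:**
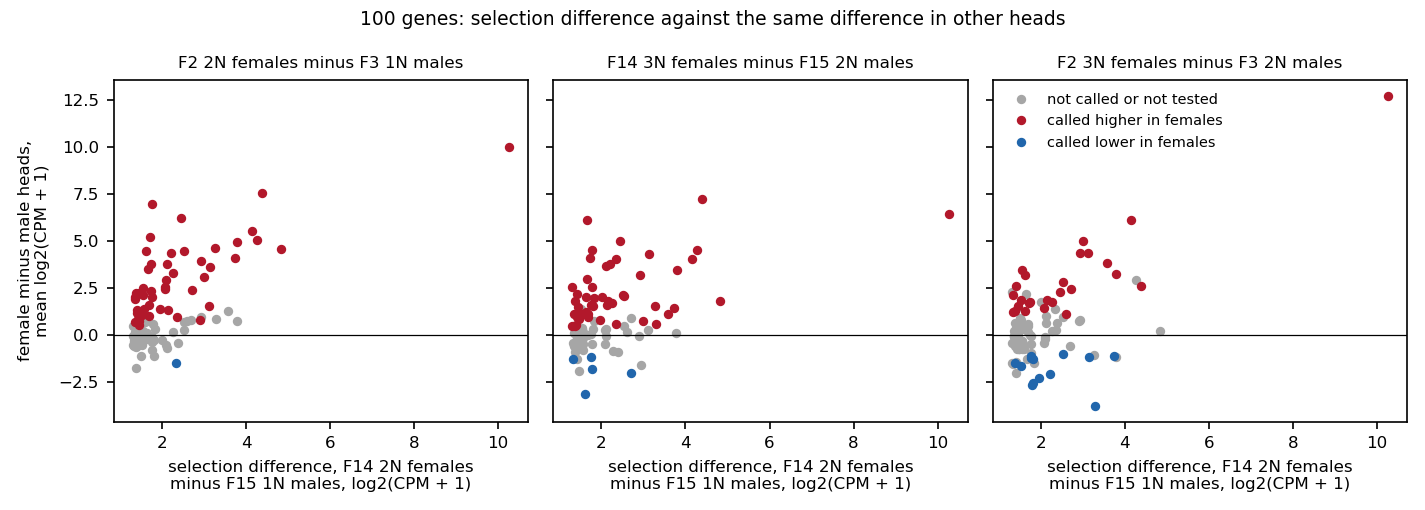
For each of the 100 genes, the difference of mean log2(CPM + 1) that chose it (horizontal axis) against the female minus male difference in 3 other pairs of head groups (vertical axis). All points lie at 1.304 or above on the horizontal axis by construction; on the vertical axes 69, 70 and 52 genes lie above 0, and red and blue mark genes called higher and lower in females.

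In all 3 comparisons 13 genes were called higher in females, 24 in exactly 2 and 38 in exactly 1, against 0.342%, 6.25% and 20.1% of all tested genes. The other 25 genes, with the 1 not tested, were called in none, against 73.3%. Of the first 20 genes by the selection difference, 5 were called in all 3 and 18 in at least 1. Of the genes ranked 81 to 100, 1 was called in all 3 and 14 in at least 1, where 26.7% of all tested genes were called in at least 1. Of the 99 tested genes, 19 were called lower in females in at least 1 comparison, against 26.2% of all tested genes. Of the same 99, 15 were called lower in 1 comparison and higher in another, against 6.44% of all tested genes. Over all tested genes, 734 of the 2985 called lower in at least 1 comparison were called higher in another.

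LOC100122102 had the largest selection difference and was close to absent from male heads. Its level was 3370, 4004, 4017, 2542 and 4845 CPM in the F14 diploid females and 4.31, 1.77, 2.50, 1.70 and 0.712 CPM in the F15 haploid males that chose it. In heads outside the selection it was at 1762, 4894, 3735, 2389 and 3247 CPM in F2 diploid females and at 8475, 13176, 18354, 9379 and 12408 CPM in F2 triploid females. In F14 triploid females it was far lower, at 37.9, 136, 197, 409 and 775 CPM. Every female head library lay above every male one, since the 3 other male groups stayed between 0.356 and 3.87 CPM. The log2 fold changes for LOC100122102 were 10.91 ± 0.78 (SE; edgeR adjusted p = 1.22e-10) for F2 diploid females against F3 haploid males, 7.77 ± 0.69 (adjusted p = 5.98e-09) for the F14 triploid pair and 13.88 ± 0.86 (adjusted p = 7.26e-12) for the F2 triploid pair.

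Its neighbour LOC100114046 followed a similar order of groups at lower levels. It was at 75.5 to 121 CPM in F2 diploid females, 66.3 to 597 CPM in F2 triploid females and 1.47 to 38.6 CPM in F14 triploid females, and between 3.88 and 23.1 CPM in the F3 and F15 male heads outside the selection. It was called higher in females in all 3 comparisons, with log2 fold changes of 3.36 ± 0.56, 1.5 ± 0.53 and 5.76 ± 0.63 (adjusted p = 0.000138, 0.0351 and 4.1e-07). In F14 triploid heads its libraries overlapped those of males.

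LOC100379126 was the gene nearest to a presence in females and absence in males. In F2 diploid females it was at 30.7, 68.1, 56.1, 45.1 and 57.5 CPM, and in F3 haploid males at 0.137, 0.0534, 0, 0.268 and 0 CPM. In F2 triploid females it was at 31.9, 49.2, 97.4, 127 and 75.8 CPM, and no F3 diploid male library held a count. Against a floor of 3 counts per library this is at least 484-fold higher in the females. In F14 triploid females it was at 10.3, 6.98, 12.1, 41.6 and 28.5 CPM, while 4 of the 5 F15 diploid male libraries were at 0 and the other at 0.133 CPM. The adjusted p was 7.92e-09, 1.59e-08 and 1.51e-09 for LOC100379126 in the order diploid F2, triploid F14 and triploid F2.

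The non-coding LOC116416192 had the same absence in males but not the same reach in females. All 5 libraries were at 0 in F15 haploid, F3 haploid and F3 diploid male heads. F2 triploid females had 12.4 to 27.6 CPM, at least 126-fold higher than the F3 diploid males, and F2 diploid females had 0.186 to 5.97 CPM. In F14 triploid females 4 of 5 libraries were at 0 and the other at 1.85 CPM, and the difference from F15 diploid males did not pass the test (adjusted p = 0.051).

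LOC100120334 was higher in females in each comparison at moderate levels. It was at 70.2, 50.03, 61.1, 46.5 and 301 CPM in F2 diploid females, with library D25 far above the others, and at 1.28, 1.44, 1.73, 2.57 and 0.996 CPM in F3 haploid males. F14 triploid females had 70.3, 42.0, 72.2, 6.12 and 13.3 CPM against 1.24 to 2.13 CPM in F15 diploid males. F2 triploid females had 16.1, 14.5, 30.2, 24.2 and 16.3 CPM against 0.458 to 2.45 CPM in F3 diploid males. The groups did not overlap in any of the 3 pairs. For LOC100120334 the log2 fold changes were 6.27 ± 0.71, 4.93 ± 0.67 and 4.02 ± 0.65 (adjusted p = 7.44e-07, 4.14e-06 and 0.000127).

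LOC100118005 and LOC100122051 were also called higher in females in all 3 comparisons. LOC100118005 was at 22.4 to 52.5 CPM in F2 diploid females, 8.67 to 29.9 CPM in F2 triploid females and 2.7 to 18.8 CPM in F14 triploid females, against 0.320 to 2.17 CPM in the 3 male groups outside the selection. LOC100122051 was at 37.8 to 96, 6.87 to 61.2 and 7.04 to 26.2 CPM in the same female groups, against 0.641 to 5.27 CPM in these males. All log2 fold changes of LOC100118005 and LOC100122051 in the 3 pairs lay between 2.66 and 5.86, with adjusted p of at most 0.000246, and no libraries overlapped within a pair.

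**Figure D4:**
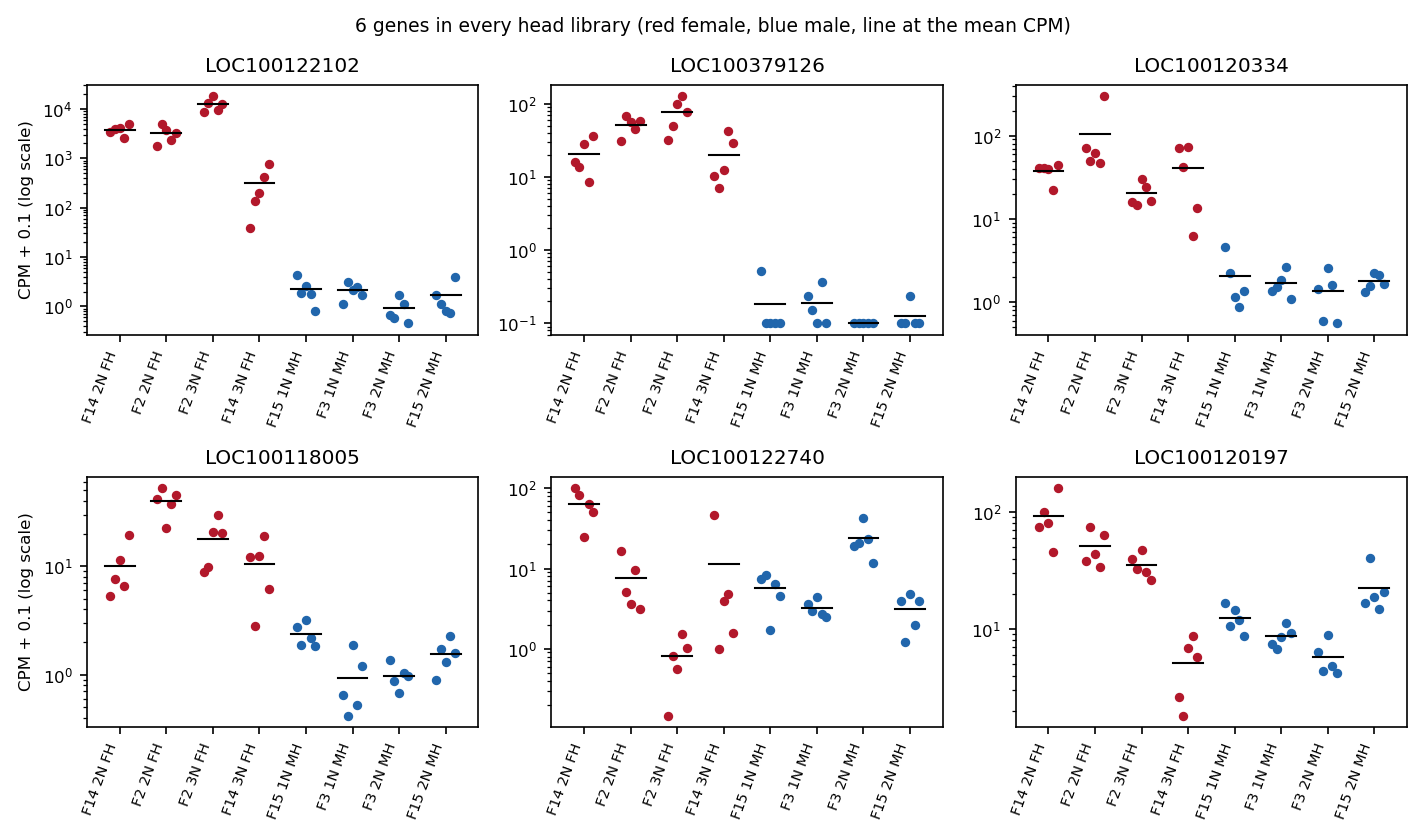
CPM + 0.1 (log scale) of 6 genes in every head library, with the mean of each group as a line. LOC100122102, LOC100379126 and LOC100120334 are higher in all female than in all male libraries of each tested pair, LOC100122740 has its lowest values in F2 3N females, and LOC100120197 has its lowest female levels in F14 3N females, at 1.73 to 8.54 CPM.

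The neighbours LOC100120544 and LOC100123729 were nearly undetected in F3 male heads and had their highest library in common in 2 female groups. LOC100120544 was at 53.4, 17.5, 46.2, 61.6 and 960 CPM in F2 diploid females and LOC100123729 at 30.5, 8.78, 22.97, 25.7 and 468 CPM in the same libraries. Library D25 was highest for both. The defensin gene Def1-1, which codes for an antimicrobial peptide, was at 507 CPM in D25 and at 16.6 to 74.6 CPM in the other 4. In F14 triploid females LOC100120544 was at 20.1 to 132 CPM and LOC100123729 at 13.7 to 54.2 CPM, and F2 triploid females had 2.7 to 4.51 and 1.04 to 3.92 CPM. In F3 males of both ploidies the highest value was 0.214 CPM for LOC100120544 and 0.160 CPM for LOC100123729. All 3 comparisons passed the test for both genes, with adjusted p of at most 0.00447. In the F14 diploid females of the selection, library D92 was highest for both genes, at 15 and 17 CPM against at most 6.30 and 3.4 CPM in the others, and Def1-1 was at 5.24 CPM in D92 and at most 0.616 CPM in the others. The part of the change in Def1-1 in the difference between sexes was not tested.

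LOC100118180 and LOC100122681 were also called higher in females in all 3 comparisons. LOC100118180 was at 26.2 to 36.6 CPM in F2 diploid females against 1.68 to 17.8 CPM in F3 haploid males, and at 16 to 45.5 against 6.13 to 12.7 CPM in the F14 triploid pair. In F2 triploid females its libraries split into 3.89 and 2.88 CPM (D31 and D32) and 39.7, 25.3 and 16.5 CPM, against 1.57 to 4.58 CPM in F3 diploid males. LOC100122681 was highest in F2 triploid females, at 19.5 to 82.3 CPM, against 3.97 to 17.5 CPM in F3 diploid males. Without D81, D83B and D84 both genes lost the call in the F14 triploid pair (adjusted p = 0.325 for LOC100118180 and 0.324 for LOC100122681, from 0.0113 and 0.000406).

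Among the first 8 genes by rank, 4 others were called in 2 or 3 of the comparisons. LOC100679671 was a gene of heads, at or below 0.916 CPM in the abdomen groups that were tested. It was at 3674, 1894, 860, 2191 and 1213 CPM in F2 diploid females but only at 18.3 to 51.2 CPM in the F14 diploid females that chose it. F14 triploid females had 131, 151, 848, 1516 and 575 CPM, and F2 triploid females had 28 and 24.9 CPM in D31 and D32 and 892, 656 and 586 CPM in the other 3. Male heads stayed between 0.0591 and 63.7 CPM. The log2 fold changes for LOC100679671 were 7.87 ± 1.21, 7.66 ± 1.20 and 3.76 ± 1.00 (adjusted p = 5.24e-05, 2.83e-05 and 0.00999), and in the last pair the libraries overlapped. The cuticle gene apd-3 had its highest head levels in F2 diploid and F14 triploid females, at 228 to 2387 and 74.3 to 7032 CPM. In F14 diploid females apd-3 was at 1.17 to 3.8 CPM. The summed level of 37 cuticle genes was ordered differently. Its median was highest in F3 male heads, at 9910 CPM in diploids and 4188 CPM in haploids. It was 3274 CPM in F2 diploid and 2884 CPM in F14 triploid females. The part of cuticle RNA in the result was not tested.

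LOC100114526 was at 26.3, 55.0, 38, 24.2 and 23.8 CPM in F2 diploid females against at most 0.629 CPM in F3 haploid males, a log2 fold change of 6.71 ± 1.14 (adjusted p = 0.000163). In F14 triploid females its libraries ran from 0 to 21.7 CPM, and the call (4.27 ± 1.03, adjusted p = 0.0026) was lost without D81, D83B and D84 (adjusted p = 0.0783). LOC107982185 was at 156 to 1532 CPM in F2 diploid females against 4.14 to 17.3 CPM in F3 haploid males, and at 98.4 to 620 CPM in F14 triploid females against 1.43 to 29.3 CPM in F15 diploid males. In the F2 triploid pair neither gene passed the test (adjusted p = 0.568 for LOC100114526 and 0.0857 for LOC107982185).

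LOC107980832 reversed between pairs. It was higher in F2 diploid females, at 8.16 to 208 CPM, than in F3 haploid males, at 0 to 0.593 CPM (adjusted p = 0.000117). It was lower in F2 triploid females, at 0, 0, 0.206, 0.477 and 0.0960 CPM, than in F3 diploid males, at 0.116, 3.23, 6.38, 1.28 and 0.102 CPM (log2 fold change of -3.92 ± 1.23, adjusted p = 0.0267). LOC100123161, ranked 7, was called in none of the head comparisons. Its levels varied widely within groups, from 2.08 to 42.5 CPM in F2 diploid females and from 0.102 to 139.5 CPM in F3 diploid males, with D14 highest.

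The difference between sexes was itself compared between pairs. The difference in the early polyploid pair (F2 triploid females against F3 diploid males) minus that in the early usual pair (F2 diploid females against F3 haploid males) was called positive for 6 of the 100 genes and negative for 31, against 11.4% and 11.2% of all tested genes. The late polyploid pair minus the early polyploid pair was called positive for 24 and negative for 11, against 5.69% and 5.89%. The 2 tests share the early polyploid libraries. Without D81, D83B and D84 the second test called 14 and 8.

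LOC100122740 carried both changes. It was at 16.4, 5.003, 3.51, 9.52 and 3.07 CPM in F2 diploid females and 2.41 to 4.37 CPM in F3 haploid males. In F2 triploid females it was at 0.0474, 0.719, 0.464, 1.43 and 0.912 CPM, below every F3 diploid male library, at 19.3, 20.9, 43.1, 23.2 and 11.5 CPM. That pair had a log2 fold change of -5.08 ± 0.93 (adjusted p = 0.000466). The interaction was -6.69 ± 1.22 (adjusted p = 0.000302) for early polyploid minus usual and 7.41 ± 1.23 (adjusted p = 0.000209) for late minus early. Its call as higher in F14 triploid females rests on library D81, at 46.2 CPM against 0.9 to 4.73 CPM in the others. Without D81, D83B and D84 the log2 fold change of LOC100122740 turned to -1.34.

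Lower levels in F2 triploid females than in F3 diploid males were called for 13 genes. Of these 13, 11 were called higher in females in the usual early pair or in the F14 triploid pair. Over all tested genes, 203 of the 1010 called lower in the F2 triploid pair were called higher in another pair. As shares of tested genes, these are 11 of 99 and 1.78%. The abundant LOC100114168 was among the 11. It was at 8664, 5635, 3851, 6772 and 2802 CPM in F2 diploid females and 851 to 1716 CPM in F3 haploid males, but at 937, 1053, 773, 1062 and 745 CPM in F2 triploid females against 1036 to 5330 CPM in F3 diploid males. Its log2 fold changes were 2.42 ± 0.47 and -1.56 ± 0.45 in these pairs, and 3.04 ± 0.48 in the F14 triploid pair (adjusted p = 0.000601, 0.0167 and 2.85e-05). LOC107980930, a non-coding RNA, was called lower there on the strength of 1 male library, D14, at 26.9 CPM against at most 0.711 CPM in the others. Without D14 the call was lost.

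The 3 genes with the most negative calls in females were LOC100113720, LOC100118781 and LOC100122740. LOC100118781 was at 0 in 4 of 5 F14 triploid female head libraries and at 0.0639 CPM in the other, against 4.85, 1.03, 0.156, 0.280 and 2.28 CPM in F15 diploid males (log2 fold change of -6.36 ± 1.47, adjusted p = 0.00181). In F2 diploid females it was higher, at 10.5, 0.834, 22.4, 60.3 and 57.1 CPM against at most 0.804 CPM in F3 haploid males (6.83 ± 1.05, adjusted p = 5.3e-05). LOC100113720 was at 0 in 4 of 5 F14 triploid female libraries and at 0.0176 CPM in the other, against 1.59 to 4.92 CPM in F15 diploid males, but 98.1% of its nonzero counts were not whole numbers. LOC100120197 was also lower in F14 triploid females, at 2.54, 1.73, 6.79, 8.54 and 5.68 CPM, than in F15 diploid males, at 16.6, 40.2, 18.7, 14.6 and 20.7 CPM (-1.89 ± 0.37, adjusted p = 0.000319). It was higher in females without overlap in both F2 pairs, at 33.8 to 74.8 and 25.9 to 47.0 CPM against 6.67 to 11.1 and 4.12 to 8.87 CPM, and the late minus early interaction was -4.55 ± 0.52 (adjusted p = 4.47e-06).

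**Figure D5:**
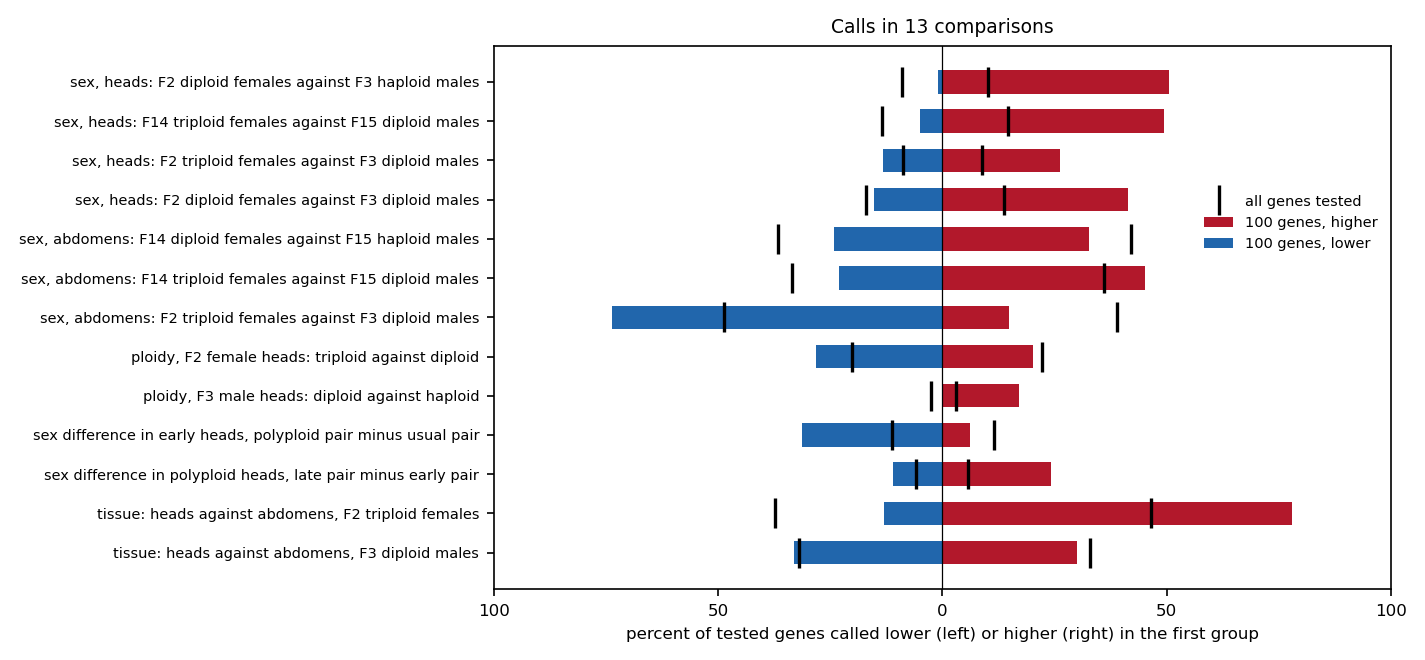
Percent of the tested genes among the 100 called higher (red, right) or lower (blue, left) in the first group of each of 13 comparisons; black marks give the percent of all tested genes called in that direction. The red bars pass the marks in the 4 head comparisons of the sexes, and in F2 triploid against F3 diploid abdomens the blue bar is the longer, at 70 of 95 genes.

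Ploidy was compared within a sex. In F2 female heads, triploids against diploids, 20 of the 99 tested genes among the 100 were called higher and 28 lower, against 22.1% and 20.1% of all tested genes, so the first share lies near the background. The diploid libraries are those of the comparison with F3 haploid males. The most negative were LOC107980832, with the values above and a log2 fold change of -8.49 ± 1.35 (adjusted p = 1.91e-05), and LOC100118781, at 0.834 to 60.3 CPM in diploids and at most 0.205 CPM in triploids (-8.55 ± 1.17, adjusted p = 3.27e-06). The most positive were LOC100119985 and the non-coding LOC116417160. LOC116417160 was at 0.350 to 0.949 CPM in diploids and 58.6 to 135 CPM in triploids (6.91 ± 1.01, adjusted p = 6.71e-06), and its reads were split between similar genes. LOC100119985 was at 0.396 to 1.75 CPM in diploids and at 9.55, 14.8, 651, 6.89 and 4.89 CPM in triploids. Without D24 and D34, the libraries of each group with the highest oskar, 12 genes were called higher and 24 lower.

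In F3 male heads, diploids against haploids, 17 of the 99 were called higher and 0 lower by edgeR, against 2.97% and 2.61% of all tested genes. At an unadjusted p under 0.05, 42 were higher and 7 lower, against 13% and 9.53% of all tested genes. DESeq2 called 27 and 2, against 6.27% and 4.08%. Leaving out 1 library at a time left 7 to 18 calls, with 7 called without D4 or D5, 8 without D1A or D13 and 9 without D1. LOC100122740 was among them, with 11.5 to 43.1 CPM in diploids above all haploids at 2.41 to 4.37 CPM (2.92 ± 0.83, adjusted p = 0.0362). LOC100119985 and LOC107980930 were called through 1 library each, D13 at 584 CPM against 2.91 to 3.59 CPM and D14 as above. LOC100119985 turned to -0.089 without D13. D13 held the highest value of its group for 41 of the 69 genes that reached 5 CPM there.

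Heads of F14 triploid and F15 diploid wasps can be set beside the selection groups only as a description. Mean log2(CPM + 1) was lower in F14 triploid than in F14 diploid female heads for all but 18 of the 100 genes, with a median difference of -1.20. Over all LOC genes 28.1% were higher in the triploids, with a median difference of -0.16. Between F15 diploid and haploid male heads the median difference was 0.04, with 54 genes higher in diploids. Over all LOC genes 47% were higher in these diploids, with a median difference of 0. Both contrasts use libraries that chose the genes.

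In abdomens, 95 of the 100 genes passed the filter, and females and males differed in most genes of the table. F14 diploid females against F15 haploid males gave 31 genes higher in females and 23 lower, where 42% and 36.7% of all tested genes were called. With DESeq2 size factors in edgeR the same comparison gave 24 and 30, and that scaling moved the median log2 fold change of all genes from 0.09 to -0.37. F14 triploid females against F15 diploid males gave 43 higher and 22 lower, against 36.1% and 33.5%, and 41 and 21 without D119. F2 triploid female abdomens were low in Syt1 and Zasp66 and, like the F14 female ones, high in germ plasm RNA. They gave 14 higher and 70 lower against F3 diploid males. In that comparison 39% and 48.8% of all genes were called. Over all 100 genes the median difference of mean log2(CPM + 1) was 0.25, 0.85 and -1.64 in this order, against 0.01, 0.06 and -0.04 over the 13792 LOC genes. The part of ovary RNA in these values was not tested. With the head-like F2 diploid female libraries in the fit the counts were 28 and 28, 45 and 21, and 14 and 71.

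Higher levels in females were called for 12 genes in all 3 abdomen comparisons and lower levels for 15, where 29.1% and 24.6% of all tested genes were called so, and both counts lie below that background. LOC100122102, LOC100379126, LOC100114046, LOC100118180 and LOC100678462 were called higher in females in all 3 head and all 3 abdomen comparisons, against 0.0915% of the genes tested in both body parts. None of the 100 was higher in all 3 head comparisons and lower in all 3 abdomen comparisons, against 0.0275%. LOC100678462 was at 54.8 to 71.4 CPM in F14 diploid female abdomens against 15.7 to 18.4 CPM in F15 haploid males, and at 57.8 to 72.7 CPM in F2 triploid females against 31.6 to 50.8 CPM in F3 diploid males. The log2 fold changes for LOC100678462 were 1.66 ± 0.20, 0.99 ± 0.21 and 0.45 ± 0.19 (edgeR adjusted p = 8.36e-09, 9.29e-05 and 0.0312) in the F14 diploid, F14 triploid and F2 triploid pair.

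LOC100118180 was a gene of female abdomens more than of female heads. It was at 193, 176, 172, 169.7 and 189 CPM in F14 diploid females, at 51.7, 135, 210.5 and 205 CPM in F14 triploid females and at 411, 399.7, 419, 403 and 377 CPM in F2 triploid females. Male abdomens stayed between 0.67 and 4.20 CPM, with no overlap. The log2 fold changes for LOC100118180 were 6.05 ± 0.40, 5.34 ± 0.39 and 7.57 ± 0.43 (adjusted p = 1.85e-14, 5.71e-13 and 2.76e-16). LOC100677934 was likewise at 68.6 to 231 CPM in these female abdomens against 0.848 to 6.64 CPM in male ones, and it stayed at or below 12 CPM in every head. LOC100121781 was at 8.79 to 28.3 CPM in the female abdomens tested and at 0 in all 20 male abdomen libraries, at least 157-fold, 130.4-fold and 120-fold higher in the order F14 diploid, F14 triploid and F2 triploid. Its counts are uncertain, since reads were split between similar genes. In heads LOC100121781 passed none of the tests between sexes.

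LOC100118781, LOC100120197 and LOC100113968 were the opposite case, chosen for higher levels in female heads but far higher in male abdomens. LOC100118781 was at 15184, 11884, 18237, 24928 and 19269.6 CPM in F15 haploid male abdomens against 11.1, 126, 195, 27.4 and 190.4 CPM in F14 diploid females. It was at 699.9 to 6484 CPM in F3 diploid males against at most 1.54 CPM in F2 triploid females. LOC100120197 was at 91.4 to 815 CPM in male abdomens and at 0.637 to 52.4 CPM in the female abdomens tested, without overlap. LOC100113968 was at 1.63 to 18.8 CPM in male abdomens and at most 1.04 CPM in these females. All log2 fold changes of these 3 genes in the abdomen comparisons were between -4.10 and -12.51, with adjusted p of at most 7.48e-06.

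Heads were set beside abdomens of the same group where the head libraries lay outside the selection. Without a filter, the median difference of mean log2(CPM + 1), heads minus abdomens, was 1.89 over the 100 genes in F2 triploid females, with 84 genes higher in heads, and -0.36 in F14 triploid females, with 45 higher. It was -0.16 with 46 higher in F3 diploid males and -0.07 with 49 higher in F15 diploid males, and over all LOC genes the 4 medians lay between -0.08 and 0.08. The medians of the 2 female groups differed in sign, and this difference was not tested. Tests were run for F2 triploid females and F3 diploid males. In F2 triploid females 78 of the 100 genes were higher in heads and 13 lower, where 46.5% and 37.4% of all tested genes were called. In F3 diploid males 29 of 97 tested genes were higher in heads and 32 lower, against 33% and 32%. Both comparisons called 22 genes higher in heads and 4 lower, against 20.9% and 11.5% of the genes tested in both, so the first share lies near the background. LOC100118917 was higher in heads in both, at 29 to 95.3 CPM in F2 triploid female heads with no count in any of the 5 abdomen libraries, at least 432-fold, and at 12.7 to 18.9 CPM in F3 diploid male heads against 0.364 to 0.955 CPM in abdomens. It was also among the 13 genes called higher in females in all 3 head comparisons, with log2 fold changes of 1.74 to 2.29.

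The 5 libraries labelled F2 diploid female abdomens had levels of these genes like those of female heads. Their median log2(CPM + 1) over the 100 genes averaged 2.98 ± 0.35 (SD, n = 5), against 0.43 in F2 triploid female abdomens and 3.23 in F2 diploid female heads. LOC100679671 was at 2092, 3111, 4016, 1727 and 2613 CPM in them and at most 0.916 CPM in every other abdomen library. LOC100118180 was at 28.7 to 41.3 CPM, close to the 26.2 to 36.6 CPM of F2 diploid female heads and below the 51.7 CPM or more of the other female abdomens.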

How the data were processed

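Heads and abdomens of the WOM line were measured by RNA-seq in 79 libraries of 12.63 to 94.98 times 1000000 counts each. The authors deposited expected counts and TPM values per gene. STAR 2.7.11a and RSEM 1.3.1 were used, per the submitters' processing notes, and the genome build is not given in the sources used here. Of all deposited expected counts, zeros included, 17.8% were not whole, and all were rounded to integers for the count tests. All 14621 symbols matched the RefSeq table of assembly Nvit_psr_1.1, used for biotype, synonym and order along the assembly.

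Groups came from the sample labels. The 100 genes, the lists and the comparisons were chosen with earlier results of these data known. Tests used edgeR 4.0.16 in R 4.3.3 (TMM scaling, filterByExpr with a minimum count of 10, quasi-likelihood tests, Benjamini-Hochberg adjustment, threshold 0.05). Head fits held the 6 head groups outside the selection, abdomen fits 7 groups without the libraries labelled F2 diploid female abdomens. Alternatives were DESeq2 1.42.0, DESeq2 size factors, no filter, limma 3.58.1 on log2(TPM + 1), other groups in the fit, and leaving out libraries. The fits were tested on simulated counts. Tables and plots used Python 3.11.15, pandas 2.3.3 and matplotlib 3.10.9.

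Genes were named by rule: the 8 with the largest selection difference, the 6 others with the largest smallest fold change among those higher in all 3 head comparisons, the 3 most negative between sexes, the 2 most positive and 2 most negative by ploidy in each sex counting only genes whose higher group averaged 5 CPM or more, the 3 highest and 3 lowest in females in all 3 abdomen comparisons, and the genes at ranks 99 to 102. Other genes were named after their values were seen. Planned lists by gene description could not be applied, because the table used here gives none. Library precision is limited by counting error and by the 4 or 5 libraries per group.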

Additional observations from a re-analysis of the deposited data

Results flagged for a closer look

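In 173 sets of libraries of 1 group, 36 had 1 library far from the others. The cutoff used flags about 1 in 20 sets when values are normally distributed. Most sets were CPM values, for which that was not checked, and the same libraries recur between sets. The 36 sets can therefore not be judged against that share. No explanation was tested for any of them, and values are CPM unless stated.

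In F2 diploid female heads, library D25 stood above the rest for LOC100120334 at 301 CPM, LOC107980832 at 208 CPM, LOC100120544 at 960 CPM and LOC100123729 at 468 CPM. In F2 triploid female heads D33 stood above for LOC107982185 at 329 CPM and LOC100119985 at 651 CPM. In F14 diploid female heads, which chose the genes, D92 was high for LOC107980832 at 46.3 CPM, LOC100120544 at 15 CPM, LOC100123729 at 17 CPM and LOC100118781 at 49.5 CPM. In the same group D95 was high for LOC100114526 at 209 CPM, D93 for LOC100679671 at 51.2 CPM and D91 for LOC100677934 at 12 CPM, while D94 was low for LOC100120334 at 22.4 CPM and D91 low for LOC116417160 at 1.32 CPM.

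In F14 triploid female heads D81 was high for LOC100122740 at 46.2 CPM and LOC100114918 at 53.5 CPM. D82B was high for LOC100120127 at 22.7 CPM and for the genes just outside the selection, LOC100115267 at 5.19 CPM and LOC116738504 at 65.4 CPM. In F3 diploid male heads D13 was high for LOC100122681 at 17.5 CPM, LOC100119985 at 584 CPM, LOC100114918 at 17.9 CPM and LOC100120127 at 15.4 CPM, and D14 for LOC100123161 at 139.5 CPM and LOC107980930 at 26.9 CPM. In the other male heads D3 was high for LOC116417160 at 28.2 CPM, D101 for LOC100123161 at 38.5 CPM, D112 for LOC100120197 at 40.2 CPM, and D113 for LOC100679671 at 13.4 CPM and LOC100119985 at 8.96 CPM.

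Among libraries labelled abdomens, D26 of the head-like F2 diploid females was high for LOC100118781 at 279 CPM, LOC100677934 at 8.84 CPM and LOC100120197 at 74.5 CPM. In F15 haploid males D107 was low for LOC100120197 at 437 CPM, and D109 had a median log2(CPM + 1) over the 100 genes of 2.06, against 1.71 to 1.78 in the other 4.

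The difference between sexes, as a log2 value in edgeR's test of the interaction, was not the same in the early polyploid pair as in the early usual pair for 9 named genes. It was larger by 2.98 for LOC100122102 and 4.25 for LOC116417160. The value was -5.90 for LOC100114526, -4.12 for LOC100679671, -11.77 for LOC107980832, -1.92 for LOC100122051, -6.98 for LOC100118781, -6.69 for LOC100122740 and -6.52 for LOC107980930. Between the late and the early polyploid pair the difference was 7.22 for LOC107980832, 7.41 for LOC100122740, 11.23 for LOC107980930 and 4.48 for LOC100114918. Without D81 the value of LOC100114918 was 2.10 (edgeR adjusted p = 0.118), and without D81, D83B and D84 it was -0.22 and that of LOC100122740 was 3.73. LOC107980930 had 7.11 without D14 and 7.47 without D81, D83B and D84 in this test, and -2.40 (adjusted p = 0.289) without D14 in the early one. LOC116417160 had 2.50 (adjusted p = 0.0765) without D3, LOC100679671 lost its call without D21 (adjusted p = 0.0517) and LOC100118781 without D15 (-6.08, adjusted p = 0.0764). LOC100122051 lost it without any 1 of 11 libraries, with an adjusted p of up to 0.0977, and without D31 and D32 (-1.33, adjusted p = 0.106). LOC100679671 and LOC107980930 also lost it in the early test without D31 and D32 (adjusted p = 0.0536 and 0.0547). Between the late and the early polyploid pair the difference was -6.12 for LOC100122102, -8.88 for LOC100113720 and -4.55 for LOC100120197. The largest adjusted p of these 16 tests was 0.0447, for LOC100122051.

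The libraries labelled F2 diploid female abdomens were left out of the main tests. They had a mean over 5 libraries of 2.98 for the median log2(CPM + 1) of the 100 genes.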

How the results depend on the processing

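Most counts of called genes moved by less than 1.5 times under the alternatives. Without D81, D83B and D84, chosen after seeing the data, the F14 triploid head comparison gave 31 genes higher in females in place of 49, and the late minus early test gave 22 in place of 35. Ploidy in F3 male heads gave 29 calls by DESeq2 and 10 by limma on log2(TPM + 1), in place of 17, and 7 to 18 when 1 library was left out. Leaving out 1 library gave 44 to 49 calls in the F2 diploid, 38 to 48 in the F14 triploid and 22 to 37 in the F2 triploid head comparison, the last 37 without D13. With log2(TPM + 1), the F14 triploid pair gave 35 higher and 9 lower and the late minus early test 18 and 15, and fitting only the compared groups gave 18 and 6 in the F2 triploid pair. The rule for the 100 genes kept 60 of them with a pseudocount of 0.1, 50 with 10, 74 with TPM, 100 with TMM and 85 to 94 without 1 library. Log2 values turned sign for LOC100122740 (-1.34, F14 triploid pair) and LOC100114918 (-2.09 in that pair and -0.22 in the late minus early test) without D81, D83B and D84, and, with 1 library left out, for LOC100119985 (-0.089 without D13 to 5.71 by male ploidy, -1.40 without D13 to 4.42 between male heads and abdomens) and LOC107980930 (-3.86 to 0.64 without D14, F2 diploid females against F3 diploid males). The causes were not tested. Of 3719 checks of named genes, 3486 held, 227 fell below the threshold and 6 turned sign. No paired analysis was possible because the labels give no replicate numbers shared between groups. The floor of 3 counts per library covers counting error only, and genes at a few counts per library are limited by depth.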
